A study of Mus musculus with 9 samples.

Results

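Heat-shock proteins and their J-domain partners were followed in messenger RNA of the mouse testis on postnatal day 7. Members were the protein-coding genes of the count table named as heat-shock proteins (the Hspa, Hspb, Hspd, Hspe, Hsph and Hsp90 symbols), as J-domain proteins of classes A, B and C (Dnaja, Dnajb and Dnajc), or as subunits of the cytosolic chaperonin (Cct2 to Cct8 and Tcp1), together with the HSP90 co-chaperone gene Chordc1 and the transcription factor gene Hsf1. They numbered 86 of the 56691 genes in the table, and 76 had enough counts to be tested, among 17251 tested genes. Sequencing covered 9 libraries of whole testis, with 3 per genotype. The genotypes were wild type (WT), a knockout of Gm1142 by its label (Gm1142-/-, written Gm1142KO) and a double knockout by its label (Gm1142-/- Gm4779-/-, written DKO). By these labels the Gm1142 knockout is shared by both knockout groups, and the comparisons ask how each differs from WT and from the other at this age. Strain, the design of the alleles, litter and the number of animals behind a library are not given in the sources used here, so a p-value reflects the spread among these libraries alone, and that spread may be technical.

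Chaperones bind unfolded stretches of other proteins and let them fold. HSP70 does so in a cycle of ATP: a J-domain protein brings the client and triggers hydrolysis, and an exchange factor such as an HSP110 releases it. HSP90 acts later on kinases and receptors, while ring-shaped chaperonins enclose a client, TRiC in the cytosol (substrates include actin and tubulin) and HSP60 with its lid HSP10 in mitochondria. Each compartment has its own set, with BiP (Hspa5) and Hsp90b1 in the endoplasmic reticulum (ER) and mortalin (Hspa9) in mitochondria. The heat-shock factor Hsf1 raises cytosolic chaperones when unfolded protein accumulates, and the unfolded protein response raises those of the ER. Testis is known for germ-cell forms such as Hspa2 and Hspa1l, which appear in meiotic and later cells that are rare at this age.

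Library totals ran from 4370124 to 8359594 counts, with DKO 2 the deepest. The targeted genes had 0 counts in all 3 DKO libraries, whereas the counts of Gm1142 (symbol 8030474K03Rik) were 56, 50 and 41 in WT against 65, 46 and 50 in those labelled Gm1142KO. Gene-level counts can miss a short deletion or frameshift, so each direction given for that group rests on its label. The libraries labelled Gm1142KO also stood apart from the other 6, scoring 43.7 to 67.5 on the first principal component against -34.0 to -21.6. Mitochondrially encoded genes took 32.5% to 38.9% of their counts, the most in Gm1142KO 2, against 27.1% to 32.9% elsewhere. All 7 defining markers of testis cells (Sox9, Amh, Ddx4, Dazl, Cyp17a1, Star and Acta2) were detected, with WT means from 22.6 to 266 CPM (counts scaled to library depth). Of 14 Sertoli-cell markers, 5 were lower (35.7%) and 1 higher (7.14%) in the libraries labelled Gm1142KO than in WT. Of 9 Leydig-cell markers, 3 were lower (33.3%). Among all genes tested, 8.38% were lower and 10.2% higher in this comparison. In DKO against those labelled Gm1142KO, 7 Sertoli markers were higher (50%) and 1 lower (7.14%). Of 15 markers of spermatogonia and early germ cells 7 were higher (46.7%), and 3 Leydig markers were higher (33.3%), with none lower in either list. There, 9.07% of all genes were higher and 10.1% lower. Summed Sertoli markers stood at 2002 to 2190 CPM in WT, 1825 to 1983 in the libraries labelled Gm1142KO and 1858 to 2364 in DKO. Leydig markers summed to 1451 to 1674, 993 to 1309 and 1144 to 1547 CPM in the same order. Markers of spermatogonia and early germ cells summed to 498 to 591, 471 to 571 and 784 to 950 CPM. The part of these shifts in the results for chaperones was not tested, and in whole testis fewer cells of a type and less RNA per cell cannot be told apart.

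In WT the cytosolic and ER workhorses led the family. Levels were put on a scale of CPM per kilobase of exon. The length joins all annotated exons of a gene and can exceed that of its messenger RNA, so ranks between genes are rough. On this scale the constitutive cytosolic HSP90 gene Hsp90ab1 stood highest at 222. The constitutive cytosolic HSP70 gene Hspa8 followed at 106, then the ER form Hsp90b1 at 93.9 and the inducible cytosolic form Hsp90aa1 at 66.1. Dnajc7, a J-domain partner that serves both HSP70 and HSP90, led the J-domain genes on this scale at 53.8. Its 262 CPM were close to the 244 CPM of Dnaja1, whose joined exons span 8629 bases against 4863 for Dnajc7. Tested TRiC subunits ranged from 13.0 (Cct7) to 51.8 (Cct8), a range that also reflects the lengths used. Joined exons span 6778 bases in Cct7 and 3088 in Cct8, at 88.1 and 160 CPM. BiP (Hspa5, 50.3), HSP60 (Hspd1, 46.1) and Chordc1 (44.7) reached the same level as the highest TRiC subunits. The stress-inducible HSP70 genes Hspa1a (1.35) and Hspa1b (1.79) and the meiotic Hspa2 (1.81) were near the bottom. All members together took 0.498% to 0.758% of a library's counts. Their sum was 6397 ± 182 CPM in WT, 6149 ± 312 in the libraries labelled Gm1142KO and 6463 ± 603 in DKO (SD, n = 3 each), so the group means differed by less than the SD of DKO.

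**Figure D1:**
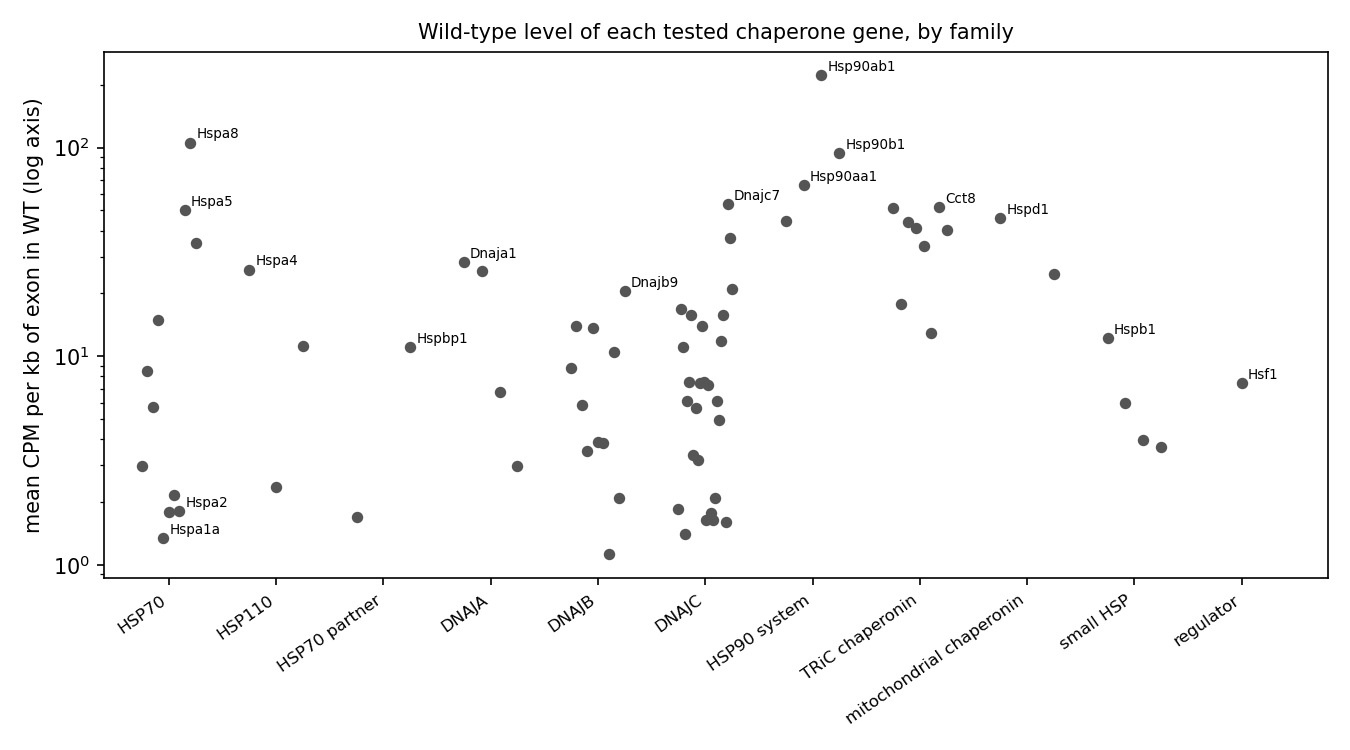
WT levels of the 76 tested members by family, as mean CPM per kilobase of exon on a log axis, with 1 point per member and names for some. The highest value is 222 for Hsp90ab1, and the inducible Hspa1a lies at 1.35.

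Against WT, the libraries labelled Gm1142KO had as many members higher as lower. With edgeR's quasi-likelihood test and Benjamini-Hochberg adjustment over all 17251 genes, 10 of 76 members were higher and 10 lower, 13.2% each, beside 10.2% and 8.38% of all genes tested (18.5% in either direction). The median log2 fold change was -0.03 over members and -0.01 over all genes. At an unadjusted p under 0.05 there were 25 members. All 3 libraries of one group lay above WT for 16 members (21.1%, beside 18.7% of all genes) and below it for 11 (14.5%, beside 17.2%). Without WT 3 the higher calls numbered 6, and without WT 1 the lower calls numbered 6. Leaving out Gm1142KO 2 and DKO 2 together gave 9 in each direction. The matching shares of all genes are not given here. Compartments were not tested against each other. Of 44 cytosolic and nuclear members 8 were higher (18.2%) and 3 lower (6.82%). Of 13 ER members 4 were lower (30.8%) and 1 higher (7.69%), and of 8 mitochondrial members 2 were lower (25%) with none higher. Medians were 0.01, -0.13 and -0.24. Only 11 of the 20 calls in this comparison were kept whichever library was left out, and neither mitochondrial call was among them. By family, TRiC had 3 of 8 subunits higher and none lower, and the HSP90 system 2 of 4 lower and none higher. HSP70 had 2 of 11 in each direction (18.2%). The class C J-domain genes had 2 of 26 lower (7.69%, near the 8.38% of all genes) and none higher.

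**Figure D2:**
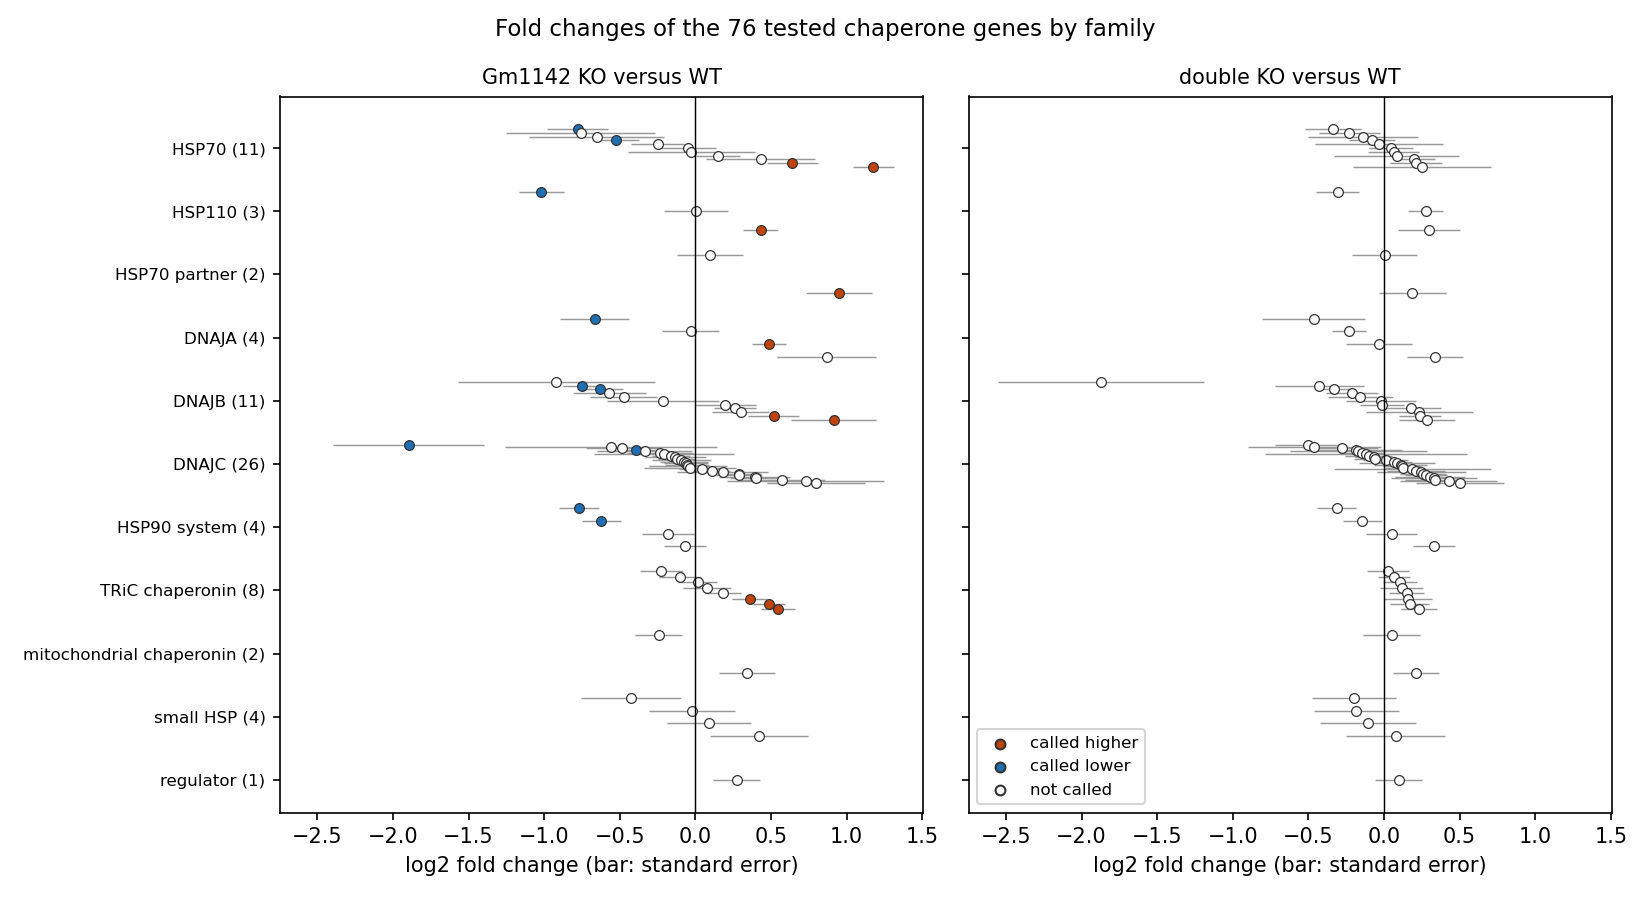
Log2 fold change of each tested member, by family, for Gm1142KO against WT and for DKO against WT, with 1 point per member, a bar for its standard error and filled points for members with an edgeR adjusted p under 0.05. In the first comparison 20 members are filled, 10 on each side of 0, and in the second none is.

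Hsf1, the regulator itself, was not called. Its level was 52.6, 59.3 and 46.7 CPM in WT, 67.6, 65.7 and 58.6 in those labelled Gm1142KO and 61.4, 45.7 and 63.9 in DKO. The 3 groups overlapped (edgeR adjusted p = 0.250 for Gm1142KO against WT). None of 6 tested genes from a list of other heat-shock factors, their regulators and related genes passed in any comparison. The heat-shock element, the sequence that Hsf1 binds, was searched as GAANNTTCNNGAA on both strands of each RefSeq promoter (GRCm38.p6, 250 bases before to 50 after a start). It was present in 5 of 70 members with a promoter in that table and in 0.662% of 27025 genes. Positions refer to that reference and not to mm39, the build of the counts. The stretches of both members with the element that were lower in the libraries labelled Gm1142KO are shown with that of Hspd1, which was not called, and capitals mark the fixed bases of the match.
Hsph1, chr5:149636280-149636308, minus strand: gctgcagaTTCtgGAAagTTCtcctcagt
Chordc1, chr9:18292243-18292293, plus strand: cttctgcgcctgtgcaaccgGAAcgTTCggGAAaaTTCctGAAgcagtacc
Hspd1, chr1:55088039-55088096, minus strand: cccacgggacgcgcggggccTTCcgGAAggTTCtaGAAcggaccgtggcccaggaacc
In Hsph1 the match lies 16 to 28 bases after a start. In Chordc1 it spans positions -4 to 19 around the start and holds 3 overlapping copies. In Hspd1 it spans -144 to -127 with 2 overlapping copies, and the same DNA read on the other strand is the match of Hspe1, the gene of the HSP10 lid, at -89 to -72. The fifth member with the element is Dnajb6, a J-domain protein that limits aggregation.

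Hsph1, the HSP110 exchange factor of the cytosol, had 86.7, 77.5 and 80.5 CPM in WT, 43.7, 43.5 and 33.7 in those labelled Gm1142KO and 58.7, 65.5 and 73.8 in DKO. Every Gm1142KO library lay below every DKO library, and every DKO library below every WT library. Against WT it fell by 1.02 on the log2 scale in the libraries labelled Gm1142KO (SE 0.15, edgeR adjusted p = 6.95e-05). Chordc1, an HSP90 co-chaperone, had 321, 318 and 366 CPM in WT, 177, 242 and 171 in those labelled Gm1142KO and 260, 261 and 287 in DKO. It showed the same order of groups without overlap, and fell by 0.77 in the first comparison (SE 0.13, edgeR adjusted p = 3.48e-04). Both calls held with each library left out. The other 3 members with a heat-shock element did not pass: Hspd1 averaged 122 ± 13.7 CPM in WT and 103 ± 17.1 in the libraries labelled Gm1142KO, Hspe1 36.7 ± 1.05 and 46.7 ± 12.9, and Dnajb6 63.5 ± 4.49 and 75.9 ± 9.57. Of all 67 tested genes with this element, 13 were higher and 6 lower, or 19.4% higher and 8.96% lower, beside 10.2% and 8.38% of all genes. The 6 lower include Hsph1 and Chordc1. The inducible Hspa1a, at 4.02, 4.73 and 3.23 CPM in WT and 3.88, 1.79 and 1.28 in those labelled Gm1142KO, was not called (edgeR adjusted p = 0.318), and 61.7% of its 75-base words also occur in another gene, mainly its twin Hspa1b.

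**Figure D3:**
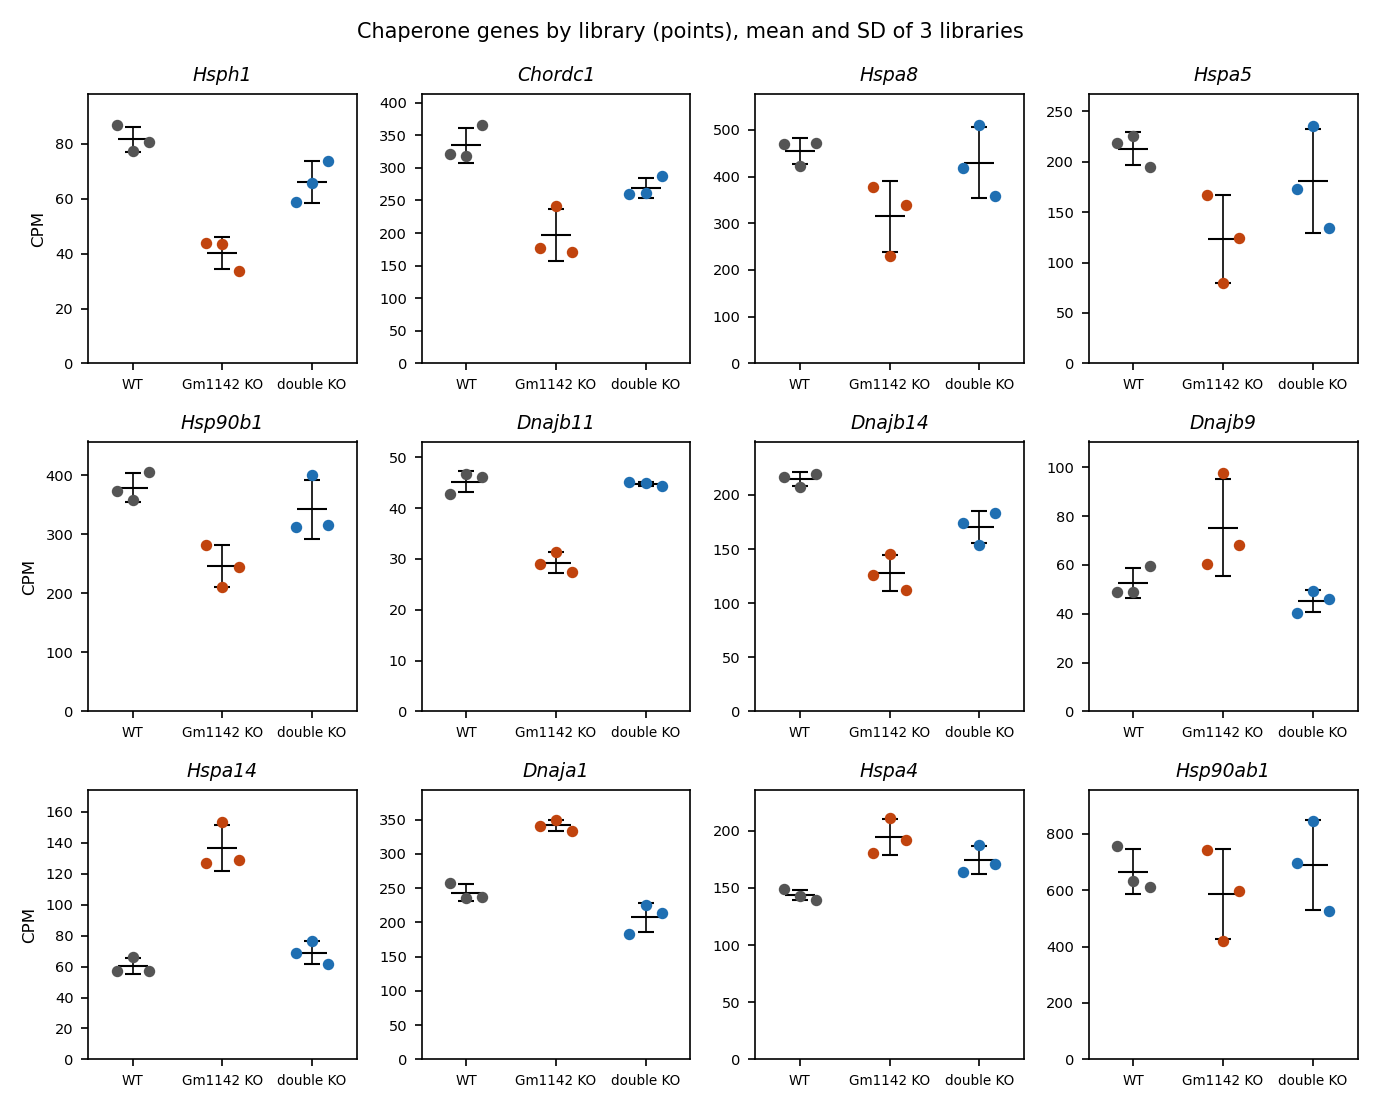
CPM of chosen members in each of 9 libraries, with 1 point per library and a line and bar for the mean and SD of 3, each axis starting at 0. Hsph1 and Chordc1 stand in the order WT, DKO, Gm1142KO without overlap, while Hspa14 stands highest in the libraries labelled Gm1142KO, at 127 to 154 CPM.

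Of the HSP90 genes themselves, the ER form was called and the cytosolic forms were not. Hsp90b1, the ER form, had 373, 358 and 406 CPM in WT, 283, 211 and 244 in those labelled Gm1142KO and 312, 400 and 315 in DKO. It fell by 0.62 in the libraries labelled Gm1142KO (SE 0.13, edgeR adjusted p = 0.00197), a call that held with each library left out. Other genes overlap 15.7% of its exonic bases. Among the cytosolic forms, Hsp90ab1 had 757, 632 and 609 CPM in WT and 741, 421 and 596 in those labelled Gm1142KO, and Hsp90aa1 had 274, 264 and 242 against 268, 210 and 266. In both, the lowest of the 9 libraries was Gm1142KO 2 and the highest DKO 2, so these genes varied more within the knockout groups than between WT libraries. Reads of Hsp90aa1 are uncertain, since 42.8% of its 75-base words occur in another gene, mainly a pseudogene copy.

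Of the 13 ER members in the libraries labelled Gm1142KO, 4 were called lower, Hsp90b1 among them, 1 was called higher and 8 did not pass; fold changes lay below 0 for 9 and above it for 4. Hspa5 (BiP), the HSP70 of the ER lumen, had 219, 225 and 195 CPM in WT, 167, 79.8 and 124 in those labelled Gm1142KO and 173, 236 and 134 in DKO. It fell by 0.78 in the libraries labelled Gm1142KO (SE 0.20, edgeR adjusted p = 0.0104) and missed the threshold with DESeq2 (adjusted p = 0.0560). Dnajb11, a J-domain partner of BiP, had 42.9, 46.7 and 46.1 CPM in WT, 28.9, 31.4 and 27.5 in those labelled Gm1142KO and 45.2, 44.9 and 44.4 in DKO. The 3 libraries labelled Gm1142KO lay below the other 6, which kept within 42.9 to 46.7 CPM, and the log2 fold change against WT was -0.63 (SE 0.15, edgeR adjusted p = 0.00611). Dnajb14, a J-domain protein of the ER membrane, had 217, 207 and 220 CPM in WT, 126, 145 and 112 in those labelled Gm1142KO and 174, 154 and 183 in DKO, again 3 groups without overlap. It fell by 0.75 (SE 0.12, edgeR adjusted p = 2.66e-04). The member called higher was Dnajb9, which also works with BiP and serves the removal of misfolded proteins. It had 48.8, 49.1 and 59.7 CPM in WT and 60.2, 97.7 and 68.2 in those labelled Gm1142KO, a rise of 0.52 (SE 0.17, edgeR adjusted p = 0.0391) that rested on Gm1142KO 2 (0.29 without it, edgeR adjusted p = 0.261). The call was also lost without WT 1 (0.152), WT 2 (0.143) or Gm1142KO 3 (0.0606). Summed over the 13 ER members, the level was 1188 ± 2.47 CPM in WT, 887 ± 92.1 in the libraries labelled Gm1142KO and 1101 ± 115 in DKO. The sum includes the 4 members called lower, so it does not show a fall across the compartment. Its WT SD is smaller than those of Hsp90b1 (24.6) and Hspa5 (16.1) alone, whose deviations partly cancel in the sum.

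ER chaperone promoters often carry an ER stress element, here searched as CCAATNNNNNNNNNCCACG on both strands, or its second form, ATTGG and CCACG with 1 base between them. The first was found in 3 of 70 members, Hspa5, Hsp90b1 and Dnajc3, and in 0.137% of genes. The second was found in 1 member, Dnajb11, and in 0.044% of genes. The stretches of the 3 lowered members and of Dnajc3, a BiP partner that was not called, are shown with the fixed bases of the match in capitals.
Hspa5, chr2:34772005-34772063, plus strand: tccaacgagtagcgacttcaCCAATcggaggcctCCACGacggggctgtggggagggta
Hsp90b1, chr10:86705618-86705676, minus strand: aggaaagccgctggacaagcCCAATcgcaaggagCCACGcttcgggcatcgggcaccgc
Hsp90b1, chr10:86705513-86705571, minus strand: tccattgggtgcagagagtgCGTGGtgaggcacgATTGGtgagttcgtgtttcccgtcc
Dnajc3, chr14:118937807-118937865, plus strand: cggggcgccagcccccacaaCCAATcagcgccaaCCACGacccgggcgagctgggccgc
Dnajb11, chr16:22857845-22857870, plus strand: ggcggcgATTGGcCCACGcctggctg
Counted from the start site, matches began at -65 in Hspa5, at -212 and, in the reverse orientation, at -107 in Hsp90b1, at -105 in Dnajc3 and at 8 in Dnajb11. Dnajc3 had 33.7, 39.6 and 20.5 CPM in WT and 40.2, 21.7 and 28.3 in those labelled Gm1142KO, values that overlapped fully. Among all tested genes with the first element, 4 of 22 were lower (18.2%) and none higher, and with the second 3 of 10 were lower (30%) and 2 higher (20%), beside 8.38% lower and 10.2% higher of all genes. These counts include the members, with Hspa5 and Hsp90b1 lower for the first and Dnajb11 for the second, so they are not separate support. A match is a description of these letters and not evidence of binding.

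Genes of ER folding outside the members were described from a separate list of 26. In the libraries labelled Gm1142KO 4 fell (15.4%), 2 rose (7.69%) and 20 did not pass, with a median of -0.15. Among all genes tested, 8.38% were lower and 10.2% higher. Calr, a lectin chaperone of the ER lumen, went from 295 ± 34.3 to 178 ± 34.2 CPM (log2 fold change -0.73), and Herpud1, which takes part in ER-associated degradation, from 31.7 ± 4.30 to 16.9 ± 2.22 (-0.91). Sec63, a membrane J-domain protein of protein import whose name keeps it out of the members, rose from 69.7 ± 2.07 to 128 ± 20.5 CPM (0.88). Sil1, the exchange factor of BiP, rose from 18.9 ± 1.09 to 33.6 ± 9.64 CPM (0.82).

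In the cytosolic HSP70 cycle, members were called in both directions. Hspa8 had 471, 422 and 471 CPM in WT, 378, 230 and 338 in those labelled Gm1142KO and 419, 511 and 359 in DKO. It fell by 0.53 on the log2 scale in the libraries labelled Gm1142KO (SE 0.15, edgeR adjusted p = 0.0205), but the call was lost without WT 1 (0.08), WT 3 (0.0728) or Gm1142KO 2 (0.0765, log2 fold change -0.35). Its reads are uncertain, since 33.0% of its 75-base words occur in another gene, mainly Gm15459. Hspa14, an HSP70 that works on the ribosome, had 57.4, 66.4 and 57.3 CPM in WT, 127, 154 and 129 in those labelled Gm1142KO and 68.5, 76.8 and 61.8 in DKO. The 3 libraries labelled Gm1142KO lay far above the other 6, and the rise against WT was 1.18 (SE 0.14, edgeR adjusted p = 5.91e-06). Of the 75-base words of Hspa14, 6.2% occur in another gene, mainly Gm45902. Dnajc2, the J-domain protein that shares the ribosome with it, was not called (70.3 ± 10.1 against 85.7 ± 10.3 CPM). Hspa12a, a distant relative of HSP70, was higher by 0.64 (27.3 ± 1.69 against 42.7 ± 6.43 CPM, edgeR adjusted p = 0.0110), a call lost without Gm1142KO 2 (0.0627) or WT 3 (0.0501).

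Hspa4, the second HSP110 exchange factor, stood opposite to Hsph1. Its level was 149, 143 and 140 CPM in WT, 180, 211 and 192 in those labelled Gm1142KO and 164, 188 and 171 in DKO, so both knockout groups lay above WT. It rose by 0.43 in the libraries labelled Gm1142KO (SE 0.12, edgeR adjusted p = 0.0130), and the call was lost without WT 2 (0.0533) or WT 3 (0.0604). The germ-cell HSP110 gene Hspa4l averaged 27.8 CPM in both groups. Among class A J-domain genes, Dnaja1, a main partner of cytosolic HSP70, had 258, 236 and 237 CPM in WT, 341, 350 and 334 in those labelled Gm1142KO and 184, 225 and 213 in DKO. Here the libraries labelled Gm1142KO were above WT and DKO below it, with no overlap, and the first difference was 0.49 (SE 0.11, edgeR adjusted p = 0.00441). Of its 75-base words, 18.4% occur in another gene. Dnaja2, with the same role, was not called (76.6 ± 5.23 against 74.7 ± 18.7 CPM). Dnajb1, the classical heat-inducible partner of HSP70, had 28.1 ± 5.21 CPM in WT and 20.1 ± 4.26 in the libraries labelled Gm1142KO (edgeR adjusted p = 0.152). Hspbap1, named for binding the small heat-shock protein Hspb1, rose from 15.9 ± 2.22 to 30.7 ± 5.43 CPM (log2 fold change 0.95, edgeR adjusted p = 0.00419).

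TRiC subunits assemble in equal numbers into each ring, while only some of their transcripts were called. Whether fold changes differed between subunits was not tested. Tcp1, the alpha subunit, had 218, 209 and 181 CPM in WT, 289, 301 and 299 in those labelled Gm1142KO and 211, 220 and 225 in DKO. It rose by 0.55 in the libraries labelled Gm1142KO (SE 0.11, edgeR adjusted p = 0.00176). Cct4, the delta subunit, had 189, 179 and 185 CPM in WT, 261, 264 and 251 in those labelled Gm1142KO and 191, 200 and 188 in DKO, a rise of 0.49 (SE 0.11, edgeR adjusted p = 0.00319). In both, the libraries labelled Gm1142KO stood clear of the other 6, and the calls held with each library left out. Other genes (Acat3, Mrpl18 and Gm26130) overlap 16.9% of the exonic bases of Tcp1, and reads there cannot be assigned without the strand setting. Cct8, the theta subunit, was higher by 0.36 (160 ± 11.9 against 205 ± 9.20 CPM, edgeR adjusted p = 0.0326), but lost the call without WT 1, 2 or 3 or Gm1142KO 1 or 3 (0.0542 to 0.146). The other 5 tested subunits did not pass. Cct2 was at 132 ± 10.3 and 133 ± 14.1 CPM, Cct5 at 114 ± 4.55 and 106 ± 7.09, and Cct3 at 114 ± 7.70 and 97.2 ± 19.4. Log2 fold changes of the 8 subunits ran from -0.22 to 0.55 with a median of 0.13. The summed level of these 8 with the untested Cct6b and Cct8l1 was 1118 ± 50.9 CPM in WT, 1330 ± 55.5 in the libraries labelled Gm1142KO and 1218 ± 86.8 in DKO. That sum includes the called Tcp1, Cct4 and Cct8, so it does not show a rise across the ring. Among 10 tested genes of prefoldin and TRiC helpers, 3 rose (30%) and 1 fell (10%), beside 10.2% and 8.38% of all genes. These were the prefoldin subunit genes Pfdn4 (0.70) and Pfdn5 (0.52) and Ric8a, a chaperone of G-protein alpha subunits (0.71), against Pdcl3, a phosducin-like helper (-0.65).

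**Figure D4:**
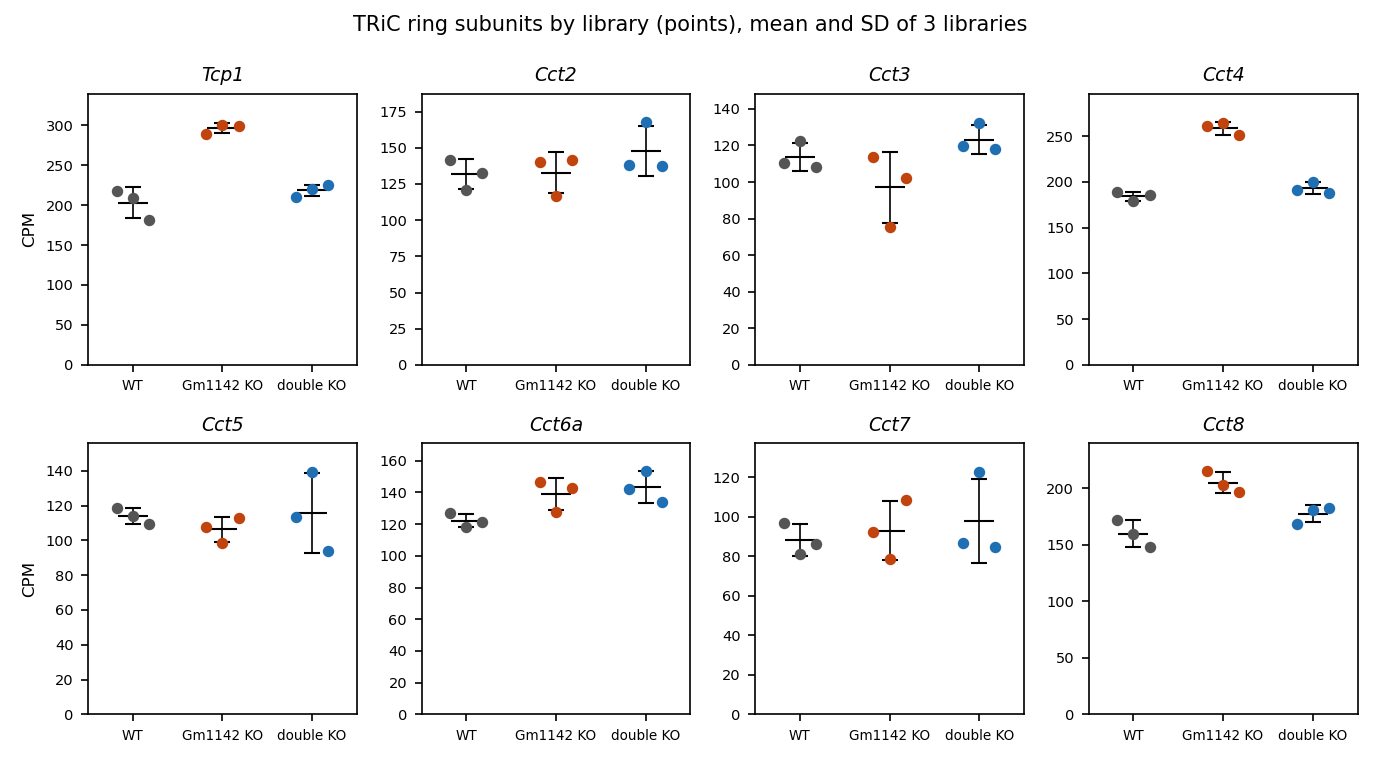
CPM of 8 TRiC subunit genes in each of 9 libraries, with 1 point per library and a line and bar for the mean and SD of 3, each axis starting at 0. Tcp1 and Cct4 are higher in the 3 libraries labelled Gm1142KO than in the other 6, and Cct2 and Cct5 overlap between groups.

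Of the 8 mitochondrial members, 6 did not pass. Hspa9 (mortalin), the matrix HSP70, had 156, 144 and 150 CPM in WT, 193, 135 and 169 in those labelled Gm1142KO and 150, 184 and 129 in DKO, which overlapped. Dnaja3, its J-domain partner, was lower in the libraries labelled Gm1142KO (26.4 ± 2.58 against 16.6 ± 1.77 CPM, log2 fold change -0.67, edgeR adjusted p = 0.0456). That call was lost without any 1 of 7 libraries, WT 1 to 3, Gm1142KO 1 to 3 and DKO 1 (0.0501 to 0.149). Dnajc11, another mitochondrial member, had 123, 107 and 124 CPM in WT and 87.8, 92.0 and 90.1 in those labelled Gm1142KO. It fell by 0.39 (edgeR adjusted p = 0.0306) and lost the call without WT 1 (0.117), WT 3 (0.113), Gm1142KO 1 (0.0739) or Gm1142KO 3 (0.0812). In a list of 14 other genes of mitochondrial folding and proteolysis, 3 rose (21.4%) and none fell, beside 10.2% and 8.38% of all genes. They were the protease gene Lonp1 (103 ± 6.13 to 171 ± 17.5 CPM, 0.72), the scaffold gene Phb2 (0.73) and the import-motor gene Timm44 (0.42).

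Of the remaining J-domain genes, 2 were called in the libraries labelled Gm1142KO, both at low levels. Dnajb13, of the sperm tail, had 7.85, 12.6 and 8.40 CPM in WT and 14.8, 19.2 and 20.7 in those labelled Gm1142KO (log2 fold change 0.91, edgeR adjusted p = 0.0274). Its call was lost without WT 1 (0.124), WT 3 (0.0981), Gm1142KO 2 (0.0648) or Gm1142KO 3 (0.117), and 11.2% of its exonic bases overlap another gene, so some reads may not be its own. Dnajc28 had 12.6, 4.14 and 5.60 CPM in WT and 2.91, 0.767 and 2.13 in those labelled Gm1142KO. The log2 difference, -1.90 with an SE of 0.50 (edgeR adjusted p = 0.0106), leaned on the high value of WT 1, without which it was -1.28 (0.132). Class C members of the spliceosome and of endosomes did not pass: Dnajc8 was at 94.5 ± 6.33 and 84.4 ± 7.21 CPM, and Dnajc13 at 72.7 ± 9.24 and 69.6 ± 2.26.

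Small heat-shock proteins and germ-cell forms stayed low in all groups. Of 8 small heat-shock genes 4 were tested and none was called; Hspb1 averaged 12.6 ± 2.82, 13.4 ± 1.32 and 10.9 ± 3.58 CPM in WT, Gm1142KO and DKO, although 46.4% of its 75-base words occur elsewhere. Hspa2 averaged 4.78 ± 2.66, 4.73 ± 0.221 and 5.11 ± 0.131 CPM. Hspa1l averaged 5.34 ± 1.33, 7.19 ± 0.177 and 4.92 ± 1.51, with 71.1% of its words shared. The 12 members known from germ cells summed to 47.9 to 67.6 CPM in WT, 64.9 to 70.9 in the libraries labelled Gm1142KO and 51.5 to 65.2 in DKO. Each pair of groups overlapped, while the general germ-cell markers stood higher in DKO than in the other groups, without overlap. The 10 members that were not tested (Dnajb3, Dnajb8, Dnajc5b, Dnajc6, Hspb2, Hspb3, Hspb7, Hspb9, Cct6b and Cct8l1) reached at most 3.20 CPM in any library, and Cct8l1 had 0 counts in all 9.

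In DKO no member was called against WT, in either direction, with edgeR, DESeq2 or limma-voom. Of all genes 0.0927% were called, 0.0464% in each direction, so a count of 0 among 76 members does not set them apart. With edgeR 7 members had an unadjusted p under 0.05, and the lowest adjusted p was 0.431 (Dnajb7). The median log2 fold change was 0.06 over members and 0.02 over all genes. Groups did not overlap for 4 members above WT (5.26%, beside 8.28% of all genes) and 6 below (7.89%, beside 7.57%). Above were Hspa4, Hsp90aa1, Dnajb6 and Cct6a, and below Hsph1, Chordc1, Dnajb14, Dnaja1, Dnajc19 and Dnajb7. Values of the first 3 below, given above, lay between WT and the libraries labelled Gm1142KO. Their log2 fold changes against WT were -0.31 for Hsph1 (SE 0.14, edgeR adjusted p = 0.549), -0.31 for Chordc1 (SE 0.13, 0.483) and -0.33 for Dnajb14 (SE 0.12, 0.438), none past the threshold. Hsp90aa1 stood at 0.33 (SE 0.14, 0.477) with DKO 2, at 396 CPM, far above the other 8 libraries. All 8 TRiC subunits had a log2 fold change above 0, from 0.03 to 0.23, and none passed.

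**Figure D5:**
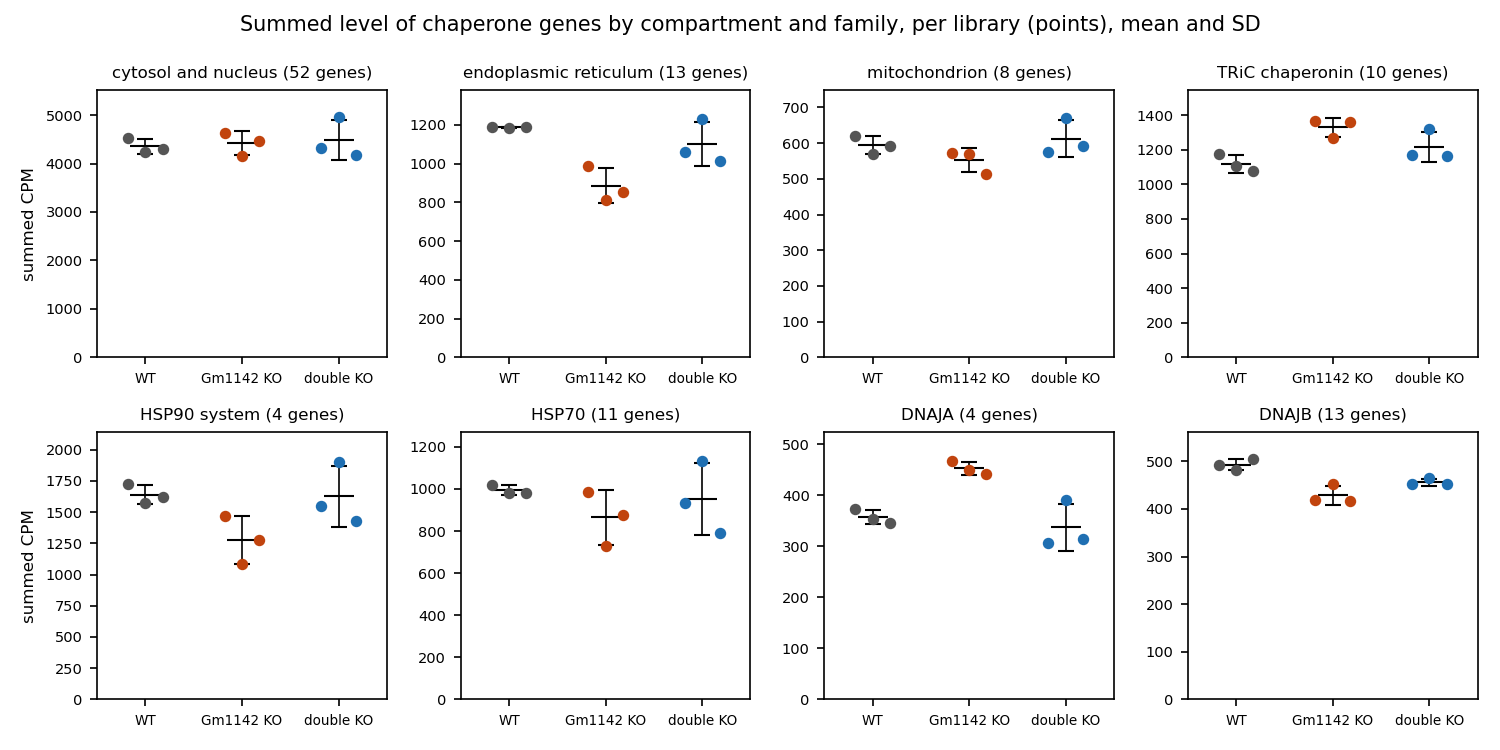
Summed CPM of members by compartment and family in each of 9 libraries, with 1 point per library and a line and bar for the mean and SD of 3, each axis starting at 0. The sets overlap in membership. ER members sum to 814 to 990 CPM in the libraries labelled Gm1142KO against 1187 to 1191 in WT, and TRiC subunits to 1266 to 1367 against 1074 to 1174. Both sums include the called members and are not separate from those calls.

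Between the knockout groups, 11 of 76 members were higher in DKO and 9 lower (14.5% and 11.8%, beside 9.07% and 10.1% of all genes, 19.1% in either direction). All DKO libraries lay above those labelled Gm1142KO for 17 members (22.4%, beside 16.3% of all genes) and below them for 12 (15.8%, beside 17.1%), with a median of 0.04 over members and 0.03 over all genes. This comparison shares the libraries labelled Gm1142KO with the first, so the values do not stand as separate evidence. ER members had 4 higher and 1 lower of 13, with a median of 0.42. Hspa5 (BiP) was not called (log2 fold change 0.55, SE 0.20, edgeR adjusted p = 0.0644), and its groups overlapped. Dnajb11 was higher in DKO by 0.62 (SE 0.15, edgeR adjusted p = 0.00707), Hsph1 by 0.71 (SE 0.15, 0.00210), Chordc1 by 0.46 (SE 0.13, 0.0188), Hsp90b1 by 0.48 (SE 0.13, 0.0133) and Dnajb14 by 0.42 (SE 0.12, 0.0227). On the other side the log2 fold change of Hspa14 was -0.98 (SE 0.14, 4.74e-05), that of Dnaja1 -0.72 (SE 0.11, 1.73e-04), that of Dnajb9 -0.73 (SE 0.17, 0.00498), that of Tcp1 -0.44 (SE 0.11, 0.00902) and that of Cct4 -0.42 (SE 0.11, 0.00933). Members called here and not against WT were Hsp90aa1 (0.40), Hspd1 (0.46) and Dnajc18, of the ER membrane (0.79), all higher in DKO, and Dnaja4, a class A partner of HSP70 (-1.33). Of the 75-base words of Hspd1, 31.0% are shared, mainly with the pseudogene Hspd1-ps3. Reads of Dnaja4 are uncertain, since 42.0% of its 75-base words occur in another gene, mainly Wdr61. Whether the fold changes of these members differ between the comparisons was not tested.

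The number of higher calls in this comparison changed with the libraries kept, including WT libraries outside the contrast. Hspa8, Hspd1 and Hsp90aa1 lost the call without WT 1, 2 or 3. The share of all genes called was not set beside the counts that follow. Against 11 with all libraries, 3 were made without Gm1142KO 3, 5 without Gm1142KO 2 and 6 without DKO 1 or DKO 2. There were 7 without WT 3 and 14 without Gm1142KO 1. Without Gm1142KO 2 and DKO 2 together, an alternative chosen after seeing the data, 5 were higher and 7 lower. Hspa8 (0.45 with all libraries) was then at 0.12 (edgeR adjusted p = 0.557), Hsp90aa1 at 0.13 (0.534), Hspd1 at 0.25 (0.325), Hsp90b1 at 0.25 (0.162) and Dnaja4 at -0.60 (0.268). Chordc1 lost the call without Gm1142KO 3 (0.113), Gm1142KO 1 (0.0649) or DKO 3 (0.0532), and Dnajb14 without Gm1142KO 3 (0.133), DKO 1 (0.0702) or DKO 3 (0.0707). Dnajc18 lost it without DKO 1 (0.118), Gm1142KO 2 (0.0891) or Gm1142KO 3 (0.0961). In all, 9 of the 20 calls were kept whichever library was left out, namely Hsph1, Dnajb11, Dnajc11, Hspa14, Dnaja1, Dnajb9, Dnajb13, Tcp1 and Cct4. Against WT, 11 of the 20 calls of the libraries labelled Gm1142KO were kept in this way.

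Outside the members, 21 co-chaperones of HSP90 and HSP70 gave 1 gene higher and 1 lower in the libraries labelled Gm1142KO than in WT. That is 4.76% each, beside 10.2% higher and 8.38% lower of all genes. In DKO none was called, beside 0.0927% of all genes. Cdc37, which delivers kinases to HSP90, rose by 1.52 on the log2 scale, with 102 ± 17.9 CPM in WT and 292 ± 23.2 in the libraries labelled Gm1142KO (edgeR adjusted p = 1.99e-07, SE 0.14), and was at 115 ± 10.5 in DKO. Fkbp5, an HSP90 co-chaperone of steroid receptors, fell from 154 ± 3.99 to 97.3 ± 3.28 CPM (-0.67, SE 0.12, 4.56e-04) and was at 140 ± 8.91 in DKO. Chordc1 and Fkbp5 were thus lower, and Cdc37 higher, than WT in the same 3 libraries, with cytosolic HSP90 itself not called.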

How the data were processed

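Members and gene lists were chosen with earlier results of these data known. The authors deposited raw read counts per gene. Per the submitters' processing notes, cutadapt, Bowtie2, STAR, featureCounts and the build mm39 were used; the tool versions, the annotation release, the strand setting and the handling of multi-mapping reads are not given in the sources used here, which touches members with near-identical copies. Of 56691 genes, 52073 were paired with a symbol. Protein-coding status came from GENCODE or RefSeq: 15 matching pseudogene symbols were left out, and 1 member (Cct6a) is coding in RefSeq alone.

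Counts were fitted over all 9 libraries in edgeR 4.0.16 (limma 3.58.1, R 4.3.3) with 1 term per group, TMM scaling (factors 0.856 to 1.07) and the default filter by group (minimum count 10, total 15), by the quasi-likelihood F-test with Benjamini-Hochberg adjustment over 17251 genes, called at an adjusted p under 0.05 with no fold minimum. Levels are CPM on scaled library sizes, and CPM per kilobase uses the joined length of all annotated GRCm38 exons of a gene. The fit was tested on simulated data. Genes named were the targets, every called member, core members fixed by name, the most abundant of each family, and up to 4 called genes of a list per comparison; some other members that were not called, such as Dnajb6, Dnajc2, Cct3 and Cct5, and those not tested are named beyond this rule, with their values seen. Alternatives were other scaling, filters, DESeq2 1.42.0, limma-voom, the compared groups alone, a replicate block, a fold minimum and leaving out each library. Of the lists, those for peritubular cells and stroma, endothelium, macrophages and blood, epididymis and ducts, and spermatids had 0 to 1 members called in either direction in Gm1142KO against WT and 0 in DKO against WT, and the germ-cell list had 3 of 15 higher and 1 lower, and 3 higher. Of all genes, 10.2% were higher and 8.38% lower in the first comparison, and 0.0464% in each direction in the second.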

Additional observations from a re-analysis of the deposited data

How the results depend on the processing

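Counts of called members, with main values of 10 higher and 10 lower in Gm1142KO against WT, 0 and 0 in DKO against WT, and 11 and 9 in DKO against Gm1142KO, were recomputed under each alternative. No direction turned among the recomputed fold changes. These were limited to members with an unadjusted edgeR p under 0.05 and to called list genes, for which a turn was unlikely beforehand. DKO against WT stayed at 0 under every alternative run. With a minimum absolute log2 fold change of 1, Gm1142KO against WT had 1 higher and 2 lower, and DKO against Gm1142KO 1 higher and 2 lower. With the compared groups fitted alone, DKO against Gm1142KO had 6 higher. Without Gm1142KO 2 and DKO 2 it had 5 higher. Leaving out 1 library gave 6 to 10 higher (6 without WT 3) and 6 to 10 lower (6 without WT 1) in Gm1142KO against WT. For DKO against Gm1142KO it gave 3 to 14 higher and 7 to 9 lower. The matching shares of all genes are not given here. The replicate numbers carry no pairing in the labels, and deviations of same-numbered libraries correlated at -0.27 to 0.10. With the replicate number as a block, 9 members were higher and 9 lower in Gm1142KO against WT, and likewise 9 and 9 in DKO against Gm1142KO. Of 20 calls in each of these comparisons, 10 and 9 were kept in all settings other than the fold minimum. Depth limits low members: 1 count is 0.113 to 0.256 CPM.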
